A study of Rattus norvegicus with 8 samples.

Results

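The genes described here are those of the rat major histocompatibility complex (MHC), whose names begin with RT1-, together with B2m, Tap1, Tap2, Tapbp, Cd74, Ciita, Psmb8, Psmb9 and Psmb10, which serve antigen processing and presentation. Every probe whose name in the array files begins with RT1- or equals one of those symbols was taken. That gave 81 probes for 57 gene names, out of 45598 probes and 36174 gene names on the array. All probes were 60 bases long. Of the 81, 63 probes for 46 genes rose well above background in 4 or more of the 8 arrays and were tested. The other 18 were well above background on no array.

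The samples were total RNA from hippocampal neurons of Wistar rats at postnatal day 0 to 1, grown in culture. All neurons were infected with a lentiviral vector on day 3 in vitro at a multiplicity of infection of 6 and taken 7 days later, at 10 days in vitro. The vector carried a scrambled control shRNA in 4 samples and an shRNA against Sirt6, whose product is a NAD-dependent enzyme that removes acetyl groups from histones, in 4 samples. The design text places the study in neuronal morphogenesis, so the comparison asks which transcripts differ when Sirt6 is reduced. Controls therefore also carry a lentivirus and an shRNA, and the effect of the virus itself was not analysed here. The only Sirt6 probe was lower in every Sirt6 shRNA array, at 34.6% of the scrambled level (log2 difference -1.53 ± 0.041 SE, adjusted p = 7.73e-06). All 15 neuron markers examined passed the background filter. So did all 18 microglia and macrophage, 9 astrocyte and 7 oligodendrocyte lineage markers, so passing it does not set neurons apart. Each array had 60.4% to 65.3% of its probes well above background.

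MHC class I molecules are heavy chains that bind beta-2-microglobulin and display peptides from inside the cell to CD8 T cells and natural killer receptors. The peptides are cut by the proteasome, of which the immunoproteasome is an interferon-inducible form, and are pumped into the endoplasmic reticulum by the Tap1 and Tap2 transporter. In neurons, class I molecules are also known for a part in synapse formation and plasticity. Class II molecules display peptides from endosomes to CD4 T cells and are mostly made by professional antigen-presenting cells, such as activated microglia in the brain. The rat complex holds the classical RT1-A genes, and large clusters of related non-classical genes named RT1-CE, RT1-M, RT1-N, RT1-O, RT1-S and RT1-T24.

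Because these genes are close copies of one another, the probe sequences themselves decide how far a value can be tied to one gene. All are read 5′ to 3′ from the array files. Across all members, 29 pairs of probes were at least 80% identical over an overlap of 30 or more bases, and 27 of these pairs were named for different genes. They involved 26 of the 58 class I and other RT1 probes. The largest group so linked held 12 probes for 11 RT1-CE, RT1-Cl and RT1-EC2 names. In addition, 11 of the 81 probes carried file accessions belonging to more than 1 gene of the RefSeq table for the assembly GRCr8. Values of these probes are given under the name in the file, and how signal divides among the copies was not tested.

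The probes that carry the differences described next are shown here, whole or, where the probe may reach past the coding sequence, as their first 30 bases. For RT1-T24-3 and RT1-S3 both tested probes are shown, since they gave different values. The remaining RT1-T24-3 probe, A_44_P1150774, was above background on no array.
RT1-T24-3 (A_44_P1085043), first 30 bases: aagacgccatttacccactgagccttctct
RT1-T24-3 (A_44_P1150779), first 30 bases: atgtaaagtagtgctgtgctgggtaatttg
RT1-T24-1 (A_44_P1086998): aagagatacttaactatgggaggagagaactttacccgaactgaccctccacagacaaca
RT1-O1 (A_44_P1080490), first 30 bases: agctcaaagcagcaacagtgtccacagctg
RT1-S3 (A_44_P454420), first 30 bases: cgacatggtaactcgctgtctgtaactagt
RT1-S3 (A_44_P128151): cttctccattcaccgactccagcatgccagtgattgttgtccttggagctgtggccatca
RT1-Db2 (A_44_P210921): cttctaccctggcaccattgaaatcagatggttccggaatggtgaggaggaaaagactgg
Tap1 (A_43_P15763): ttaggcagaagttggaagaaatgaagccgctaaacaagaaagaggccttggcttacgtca
Tap1 (A_64_P032208): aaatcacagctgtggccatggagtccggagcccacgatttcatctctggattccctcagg
In the rn4 coordinates of the files, the tested probes of RT1-T24-3 lie at chr20:2871256-2871315 and chr20:2895350-2895409, and the undetected one at chr20:2894769-2894828, all on the plus strand. The probe of RT1-T24-2 lies between the tested ones at chr20:2880208-2880267 on the minus strand. The second tested RT1-T24-3 probe was designed on a predicted non-coding transcript that did not match the RefSeq table. The probe named RT1-T24-1 spans chr20:2921878-2922247. Its accessions belong to RT1-T24-3 and RT1-T24-4 in that table, not to RT1-T24-1. The RT1-S3 probes are at chr20:2820059-2820117 and chr20:2817942-2818001, and RT1-O1 spans chr20:2801455-2801636. RT1-Db2 is at chr20:4650316-4650375, and Tap1 at chr20:4797053-4797112 and chr20:4793943-4794002, all on the minus strand. Which exon or untranslated region each span covers was not analysed here.

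Most members were not called, and the largest rises were in the class I probes named RT1-T24-3, RT1-T24-1 and RT1-O1. The largest falls were in RT1-S3, also class I, and in the peptide transporter gene Tap1. Of the 63 probes tested, 5 rose, 7 fell and 51 were not called at an adjusted p under 0.05. That is 19.0%, against 28.4% of the 28620 probes tested on the array, of which 14.1% rose and 14.4% fell. The members were thus called less often than the array as a whole, a difference that was not itself tested. The median log2 difference, Sirt6 shRNA minus scrambled, was -0.09 over the members and 0.02 over all probes tested. Below 0 lay 46 of the 63 members (73.0%), against 46.5% of all probes. Groups did not overlap for 13 of the 63 (20.6%), against 32.1% of all probes. Nothing in the labels tells separate cultures or animals apart, so the p-values cover only sample-to-sample spread, possibly technical. Scaling on 7 spike-in probes in place of the 75th percentile raised the median of all probes to 0.09 and that of the members to -0.02, and left 39 of 63 members below 0. Leaving out 1 array put the members' median between -0.14, without scrambled replicate 3, and -0.06, without scrambled replicate 2. Spike-in scaling also turned the split of all called probes from 49.5% rising to 62.2% rising. Under that scaling 1 member, RT1-S3, still fell while 6 rose.

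**Figure D1:**
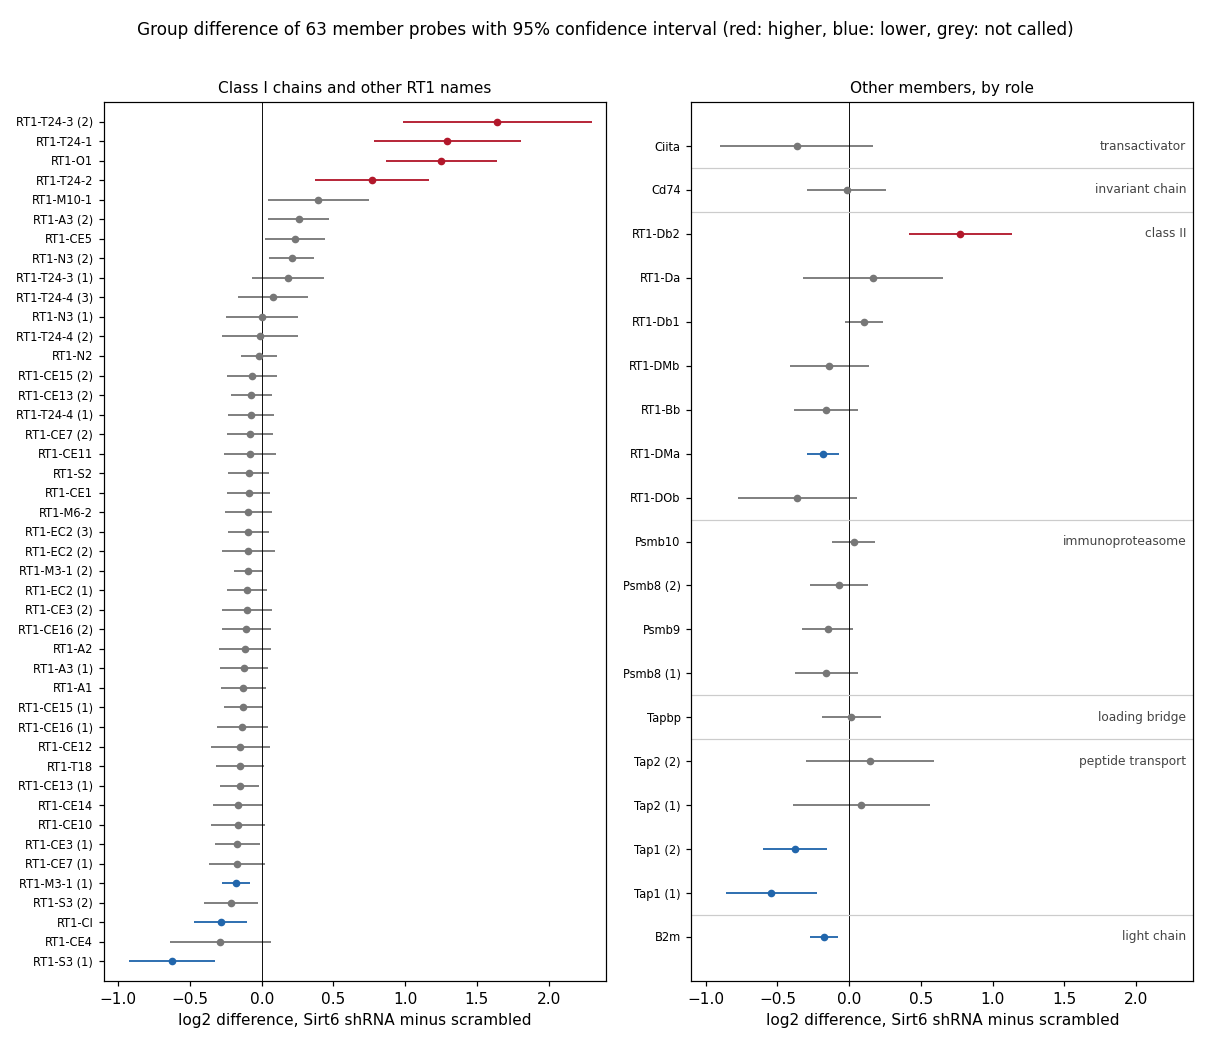
Each point is 1 of the 63 tested member probes, with its log2 difference (Sirt6 shRNA minus scrambled, 4 arrays each) and 95% confidence interval, ordered by role. The 4 red class I probes at the top of the left panel lie between 0.77 and 1.64, while most grey intervals include 0.

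RT1-T24-3, a non-classical class I gene, gave the largest rise. The processed signal of its probe A_44_P1085043 was 130.0, 182, 91.7 and 166 in the scrambled arrays and 380.0, 466, 331 and 655 in the Sirt6 shRNA arrays. Every Sirt6 shRNA array was above every scrambled array, with replicate 4 the highest. The means were 143 ± 40.3 (SD, n = 4) and 458 ± 143 (SD, n = 4), a 3.12-fold rise on the normalized scale (log2 difference 1.64 ± 0.286 SE, adjusted p = 0.0043).

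The probe named RT1-T24-1, which the gene table assigns to RT1-T24-3 and RT1-T24-4, also rose. It read 6.58, 9.55, 8.93 and 9.97 in scrambled arrays, where 3 of 4 were well above background, and 20.7, 22.3, 15.8 and 31.1 in Sirt6 shRNA arrays. As for RT1-T24-3, Sirt6 shRNA replicate 4 was highest and replicate 3 lowest of its group. The log2 difference was 1.29 ± 0.221 SE (adjusted p = 0.0040). The other probe named RT1-T24-1 was above background on no array.

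RT1-O1, another non-classical class I gene, read 7.79, 5.05, 8.85 and 6.93 with the scrambled shRNA, above background in 3 of 4 arrays, and 18.1, 18.1, 14.7 and 18.0 with the Sirt6 shRNA. The groups did not overlap, and the log2 difference was 1.25 ± 0.168 SE (adjusted p = 0.0014). RT1-T24-2, listed as a long non-coding RNA in the RefSeq table, stood at the edge of detection. Its signals were 6.11, 5.34, 6.82 and 4.17, of which 1 was well above background, and 10.5, 10.2, 11.3 and 7.26, of which 3 were. Here Sirt6 shRNA replicate 4 was the lowest of its group, unlike in RT1-T24-3. The log2 difference was 0.77 ± 0.173 SE (adjusted p = 0.0134).

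How large these rises are depends on how background is handled, since all but RT1-T24-3 lie near it. With normexp background correction the differences were 1.33 for RT1-T24-3, 0.24 for RT1-T24-1, 0.21 for RT1-O1 and 0.05 for RT1-T24-2. The first 3 stayed called and RT1-T24-2 did not (adjusted p = 0.313). With 16 added to each signal they were 1.53, 0.58, 0.48 and 0.22, all called. No single omitted array ended any of these 4 calls, with the background filter kept as set on all 8 arrays. RT1-T24-2, well above background on 1 scrambled and 3 Sirt6 shRNA arrays, only just met that filter. The filter was not applied again after an omission, so for RT1-T24-2 the omissions say little.

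RT1-T24-4, the remaining RT1-T24 name, was not called by any of its 3 probes. Their log2 differences were -0.08 ± 0.070, 0.08 ± 0.105 and -0.01 ± 0.115 (SE). The last 2 probes have the same 60 bases under different probe names. On the same array they differed by -0.10 ± 0.079 (SD, n = 8) on the log2 scale, which gives a direct measure of how closely 2 copies of 1 probe repeat.

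RT1-S3, also non-classical, fell on 1 of its 2 probes. Probe A_44_P454420 read 279, 275, 214 and 296 with the scrambled shRNA and 175, 170.2, 160.3 and 199.6 with the Sirt6 shRNA. No Sirt6 shRNA array reached the lowest scrambled one, which was replicate 3. The log2 difference was -0.63 ± 0.130 SE (adjusted p = 0.0092), or 64.7% of the scrambled level. The brighter probe, A_44_P128151, read 1465, 1593, 1324 and 1639 against 1289.7, 1365, 1307 and 1354. Those groups overlapped, and its difference of -0.22 ± 0.082 SE was not called (adjusted p = 0.085). The A_44_P454420 call was kept in all 19 alternative settings fitted by probe, at -0.75 to -0.48. With the brightest probe standing for each gene, RT1-S3 is read by A_44_P128151 and was not called (adjusted p = 0.082). With the mean of the probes of each gene, RT1-S3 differed by -0.42 ± 0.103 SE and was called (adjusted p = 0.0180).

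**Figure D2:**
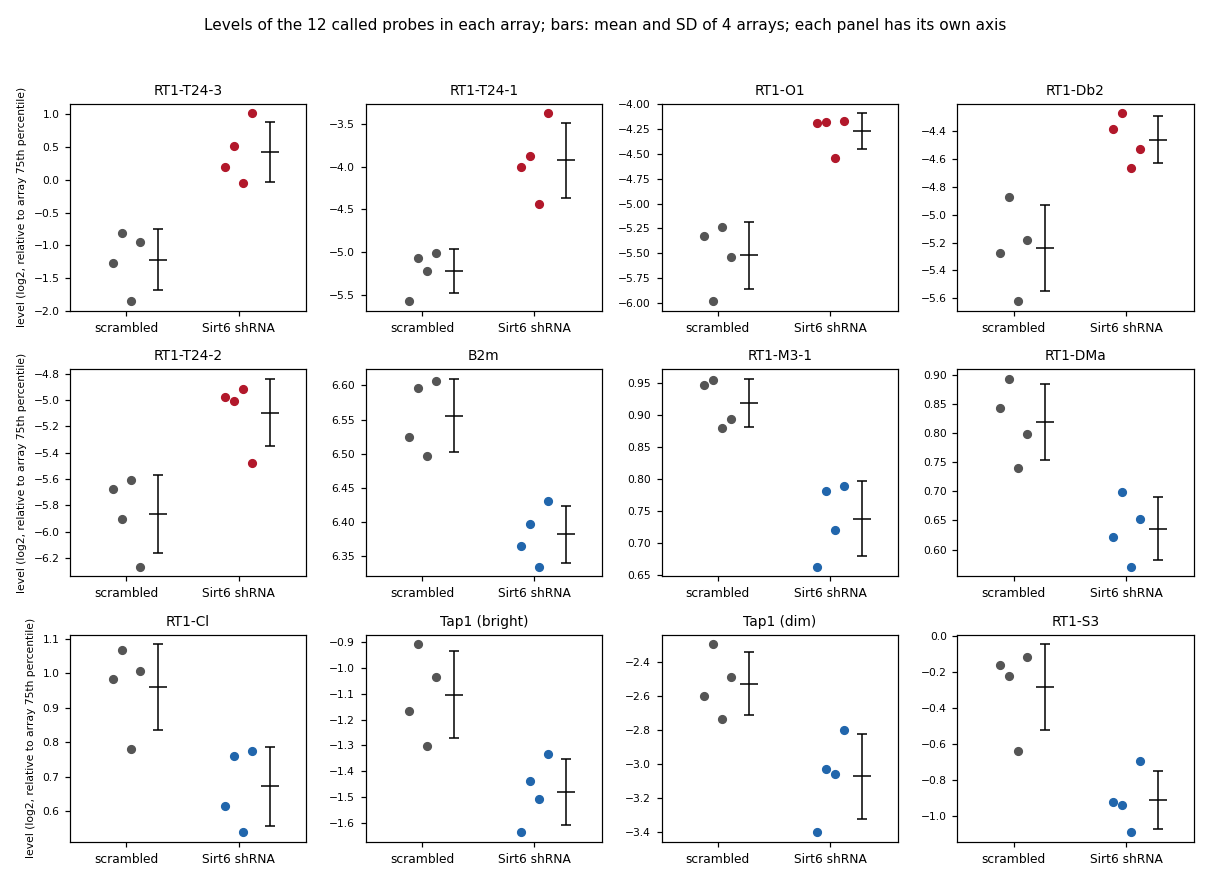
Points are the levels of each of the 12 called probes in the 4 scrambled and 4 Sirt6 shRNA arrays (log2 of processed signal relative to the array's 75th percentile; bars are the mean and SD of 4 arrays; each panel has its own axis). The 5 rises and 7 falls all show groups that do not overlap, and the panels for B2m, RT1-M3-1 and RT1-DMa span less than 0.4 log2 units.

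The classical and RT1-CE class I genes gave small log2 differences, and all but 1 of their probes were not called. RT1-A1, RT1-A2 and RT1-A3, the classical transplantation antigens, had 4 probes tested and none called. RT1-A1 read 28127, 29126, 27009 and 26842 in scrambled arrays and 24739, 28066, 25134 and 26778 in Sirt6 shRNA arrays. Its groups overlapped, with a log2 difference of -0.13 (95% interval -0.28 to 0.03). RT1-A2 differed by -0.12 (-0.30 to 0.06). The bright RT1-A3 probe, 45 of whose 47 overlapping bases match that of RT1-A1, differed by -0.12 (-0.29 to 0.05). These 3 intervals leave room for a fall of at most 0.30 on the log2 scale. The other RT1-A3 probe, with signals of 8.21 to 9.66 and 9.39 to 11.7 that overlapped, differed by 0.26 ± 0.092 SE (adjusted p = 0.0705).

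Of 21 RT1-CE, RT1-Cl and RT1-EC2 probes tested, 20 were below 0 and 1, RT1-Cl, was called. RT1-Cl read 619, 670.0, 571 and 646 in scrambled arrays and 508, 554, 497 and 553 in Sirt6 shRNA arrays. The groups did not overlap, and it fell by 0.29 on the log2 scale (SE 0.079, adjusted p = 0.0301). The call was lost when any of 5 arrays was left out, namely scrambled replicates 1, 2 and 4 and Sirt6 shRNA replicates 1 and 3, with adjusted p of RT1-Cl from 0.067 to 0.079. It was also lost under spike-in scaling (0.210) and with no filter on dim probes (0.061). In the 12 probes linked by sequence, the differences ran from -0.29 to -0.07 with a median of -0.15. All 12 were below 0, but probes that share most of their bases are not independent readings. The exception to the common sign was RT1-CE5, at 0.23 ± 0.090 SE (adjusted p = 0.091).

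The array-to-array level of class I moved within the groups as well. The median deviation of the class I probes from their 8-array means was 0.01, 0.15, -0.09 and 0.10 in scrambled replicates 1 to 4, and -0.11, 0.05, -0.10 and -0.03 in the Sirt6 shRNA replicates. The groups overlapped, with scrambled replicate 3 among the lowest and Sirt6 shRNA replicate 2 the highest of its group. Markers of microglia and macrophages, which also make MHC molecules, deviated by 0.09, 0.47, 0.02 and 0.32 in the scrambled arrays. In the Sirt6 shRNA arrays they deviated by -0.40, 0.39, -0.54 and -0.35, again with replicate 2 standing apart. Of those 18 markers all passed the background filter, 3 fell and none rose, beside 14.4% of probes falling and 14.1% rising over the array. The 3 that fell were Tmem119 (-0.89 ± 0.181 SE, adjusted p = 0.0086), P2ry12 (-0.68 ± 0.202, adjusted p = 0.0382) and Csf1r (-0.57 ± 0.179, adjusted p = 0.0478). The groups overlapped for P2ry12 and Csf1r but not for Tmem119, and the list's median was -0.47. The summed signal of the list ran from 18326 to 24916 in scrambled arrays and from 12767 to 24381 in Sirt6 shRNA arrays. Astrocyte markers fell in 7 of 9 cases, beside the same 14.4% falling, with a median of -0.38. Their part in the class I values was not tested, and in such bulk RNA fewer cells of a type and less RNA per cell cannot be told apart. Of 10 T and B cell markers 7, among them Cd3e, Cd8a and Cd79a, were above background on no array. Of 15 neuron markers 5 rose and 3 fell, beside the same 14.1% rising and 14.4% falling. Of 5 tested fibroblast and meningeal markers 3 rose and none fell. Of 7 oligodendrocyte lineage markers 1 rose and 2 fell, and of 5 tested endothelial markers 1 rose and none fell.

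Among the remaining RT1-M, RT1-N, RT1-S and RT1-T names many probes were not above background. Of the 32 probes named RT1-M, RT1-N, RT1-O, RT1-S or RT1-T, 13 were above background on no array, and the 19 tested gave 4 rises and 2 falls (31.6% called, near the 28.4% of all probes). No array detected any probe of RT1-M1-2, RT1-M1-4, RT1-M1-5, RT1-M2, RT1-M4, RT1-M5 or RT1-M6-1. RT1-M3-1, whose mouse counterpart is known for presenting formylated bacterial peptides, was above background on all 8 arrays. Its probe A_64_P075948 read 604, 620.4, 613 and 597 against 524, 562, 564 and 559, without overlap, and fell by 0.18 on the log2 scale (SE 0.043, adjusted p = 0.0164). The RT1-M3-1 call was lost under spike-in scaling (adjusted p = 0.425) and with no filter on dim probes (0.0507). With the brightest probe standing for each gene, RT1-M3-1 is read by its other probe and was not called. Its other probe differed by -0.10 ± 0.043 SE and was not called (adjusted p = 0.134). RT1-N3 was close to the threshold on 1 of 2 probes, with 53.3, 60.3, 52.6 and 61.6 against 70.3, 65.6, 67.4 and 67.2. These groups did not overlap, and the adjusted p of 0.0509 missed the threshold. RT1-M10-1 gave 0.40 ± 0.154 SE (adjusted p = 0.092).

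B2m encodes beta-2-microglobulin, the light chain of class I molecules. It read 28792, 30963, 30045 and 31298 in scrambled arrays and 27310.3, 27542, 27595 and 27905 in Sirt6 shRNA arrays. The groups did not overlap, though the step was small, at 88.6% of the scrambled level (log2 difference -0.17 ± 0.042 SE, adjusted p = 0.0181). For B2m, the adjusted p missed the threshold without scrambled replicate 2 (adjusted p = 0.053), scrambled replicate 4 (0.0503) or Sirt6 shRNA replicate 3 (0.053), with quantile normalization (0.062), with no filter on dim probes (0.054) and under spike-in scaling (-0.10, adjusted p = 0.516).

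Peptide transport showed a fall in 1 of its 2 subunits. Tap1 fell on both probes. The dimmer one, A_43_P15763, read 51.7, 65.1, 49.9998 and 57.3 against 31.4, 40.1, 41.1 and 46.4, a log2 difference of -0.54 ± 0.138 SE (adjusted p = 0.0214). The brighter one, A_64_P032208, read 139, 170.4, 135 and 157 against 107, 121, 120.2 and 128, a difference of -0.38 ± 0.097 SE (adjusted p = 0.0230). In both, each Sirt6 shRNA array was below each scrambled array. Both Tap1 calls were lost without scrambled replicate 2 (adjusted p = 0.054 and 0.052) or scrambled replicate 4 (0.053 and 0.059). The brighter probe's call was also lost without Sirt6 shRNA replicate 1 or 3 (0.057 and 0.058) and with no filter on dim probes (0.053). Under spike-in scaling neither Tap1 probe was called (0.068 and 0.140). With normexp correction the differences were -0.25 and -0.26, both called.

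Tap2, the partner subunit, was not called, at 0.15 ± 0.193 and 0.08 ± 0.207 (SE) on its 2 probes. Its scrambled arrays alone ranged from 347 to 554 on the brighter probe, so the interval of -0.40 to 0.56 is wide. Whether Tap1 and Tap2 differ from each other in their response was not tested. Tapbp, or tapasin, which holds class I chains to the transporter, differed by 0.02 ± 0.089 SE.

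The immunoproteasome subunits were not called on any of 4 probes. Psmb8 differed by -0.16 ± 0.095 and -0.07 ± 0.088 (SE), Psmb9 by -0.15 ± 0.076 and Psmb10 by 0.03 ± 0.066. Psmb9 read 1213, 1281, 1095 and 1279 against 1083, 1170.2, 1091 and 1162, with scrambled replicate 3 inside the range of the other group. Without that array Psmb9 was called (-0.22, adjusted p = 0.034). Of 15 constitutive proteasome genes, 2 rose slightly and none fell, beside 14.1% of probes rising and 14.4% falling over the array. The 2 that rose were Psmb7 (0.18 ± 0.037 SE, adjusted p = 0.0087) and Psma6 (0.17 ± 0.050, adjusted p = 0.0395).

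Class II chains gave 1 rise and 1 fall, or 28.6% of their tested probes, near the 28.4% called over all probes. RT1-Ba, RT1-DOa and RT1-Ha were above background on no array, and 7 of the 10 class II probes were tested. RT1-Db2, a class II beta chain gene, rose from 8.09, 10.9, 6.76 and 8.86 to 15.9, 16.9, 13.5 and 14.0. Its groups did not overlap (log2 difference 0.78 ± 0.156 SE, adjusted p = 0.0081), but with normexp correction the value was 0.09 and not called (adjusted p = 0.108). Its neighbour RT1-Db1, also a beta chain, was not called at 0.10 ± 0.057 SE. RT1-Da, an alpha chain gene, stood at the edge of detection, above background in 2 scrambled and 3 Sirt6 shRNA arrays, and differed by 0.17 ± 0.211 SE.

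RT1-DMa, a subunit of the DM molecule that loads peptides onto class II, read 561, 594, 555 and 558 against 509.8, 530.4, 508 and 509. The groups were apart, and it fell by 0.18 on the log2 scale (SE 0.048, adjusted p = 0.0240). That RT1-DMa call was lost without scrambled replicate 1 or 2 (adjusted p = 0.057 and 0.064) and without Sirt6 shRNA replicate 1 or 3 (0.061 and 0.065), under spike-in scaling (0.421) and with no filter (0.060). RT1-DMb, its partner, differed by -0.14 ± 0.119 SE and was not called. Cd74, the class II invariant chain, read 137, 169.7, 148 and 160.4 against 140.1, 194, 146 and 149, with a difference of -0.02 ± 0.119 SE. Ciita, the master switch of class II transcription, was above background in 4 scrambled and 2 Sirt6 shRNA arrays on 1 probe (-0.37 ± 0.230 SE, adjusted p = 0.273) and nowhere on the other.

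Probes named for the same gene were then compared directly, since a difference between them within an array is free of scaling between arrays. There were 17 such pairs in 15 genes, each setting a probe against the brightest of its gene. Both RT1-T24-4 pairs set probes of the same 60 bases against the same brightest probe, so they are not independent. One pair, in RT1-S3, differed in its group difference, by -0.41 ± 0.077 SE (adjusted p = 0.0297 over 5824 pairs on the array). That is 5.88% of the members' pairs, against 4.02% of all pairs. The RT1-S3 pair call did not survive 6 of the 8 single-array omissions. It remained without scrambled replicate 3 (adjusted p = 0.039) or Sirt6 shRNA replicate 4.

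The widest gap was in RT1-T24-3. Its second probe, A_44_P1150779, read 75.3, 89.7, 106 and 105 with the scrambled shRNA and 119, 113, 111 and 94.1 with the Sirt6 shRNA. Those groups overlapped, and the difference of 0.18 ± 0.110 SE was not called, against 1.64 for the other probe. The mean of both probes differed by 0.91 ± 0.137 SE and was called (adjusted p = 0.0022). Since A_44_P1150779 was designed on a predicted non-coding transcript, whether both probes read the same transcript is open and was not tested. The gap of -1.46 ± 0.339 SE did not pass (adjusted p = 0.058), although the groups of the ratio did not overlap. It passed under 4 alternatives, with adjusted p of 0.0042 for normexp correction, 0.0495 for quantile normalization, 0.0459 with probes above background on all 8 arrays and 0.021 with 16 added. RT1-A3 had a gap of 0.38 ± 0.099 SE (adjusted p = 0.077). The median size of a gap was 0.08 in the members and 0.10 over all pairs. By the exact two-sided permutation test, adjusted over the 17 pairs, none passed. With 4 arrays a side no p below 0.0286 is possible, and pairs at that floor, RT1-S3 among them, had an adjusted p of 0.097. That adjusted value depends on how many pairs reach the floor, so the test says little of any 1 pair.

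**Figure D3:**
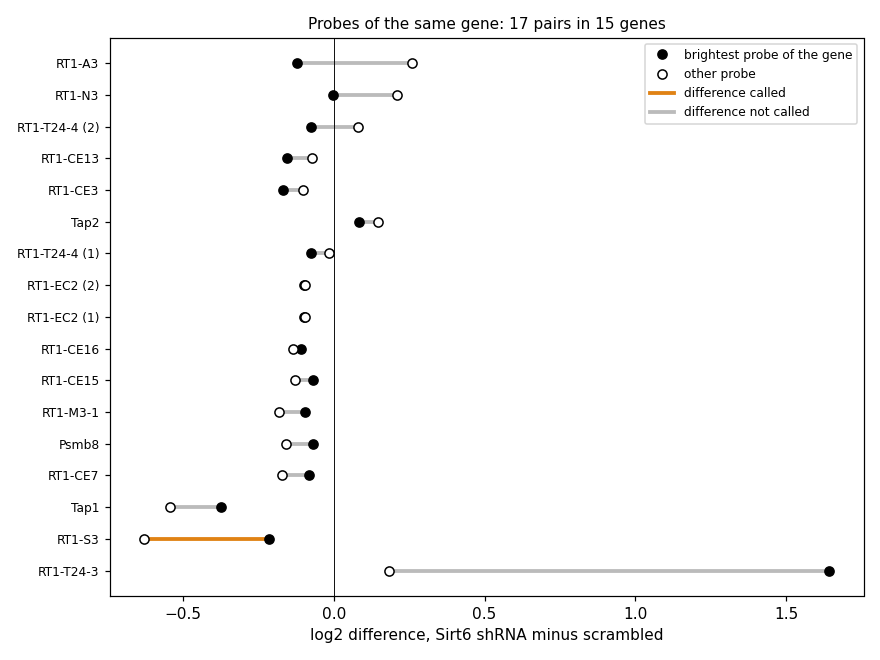
Each line joins the log2 difference (Sirt6 shRNA minus scrambled) of the brightest probe of a gene (filled) to that of another probe of the same gene (open), for 17 pairs in 15 genes. RT1-S3 is the pair called, and RT1-T24-3 spans 0.18 to 1.64.

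Along chromosome 20, where 51 of the 57 names could be placed in the gene order of the RefSeq table, 4 of the 5 rises lay between RT1-O1 and RT1-T24-1. RT1-O1, RT1-N3, RT1-S3, RT1-T24-4, RT1-T24-3, RT1-T24-2 and RT1-T24-1 follow each other among the members. Of the 12 tested probes with these 7 names, 4 rose and 1 fell. Of the 43 tested member probes elsewhere on that chromosome, 1 rose and 4 fell. Over the whole array 14.1% of probes rose and 14.4% fell. The ends of the stretch were set at called rises after their values were seen, so these counts describe where the rises lie and support nothing further. RT1-N3, RT1-S3 and RT1-T24-4 lie inside the stretch and had no called rise. The probe named RT1-T24-1 is assigned to its relatives, and whether 2 of the 4 rises read the same transcript was not tested.

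**Figure D4:**
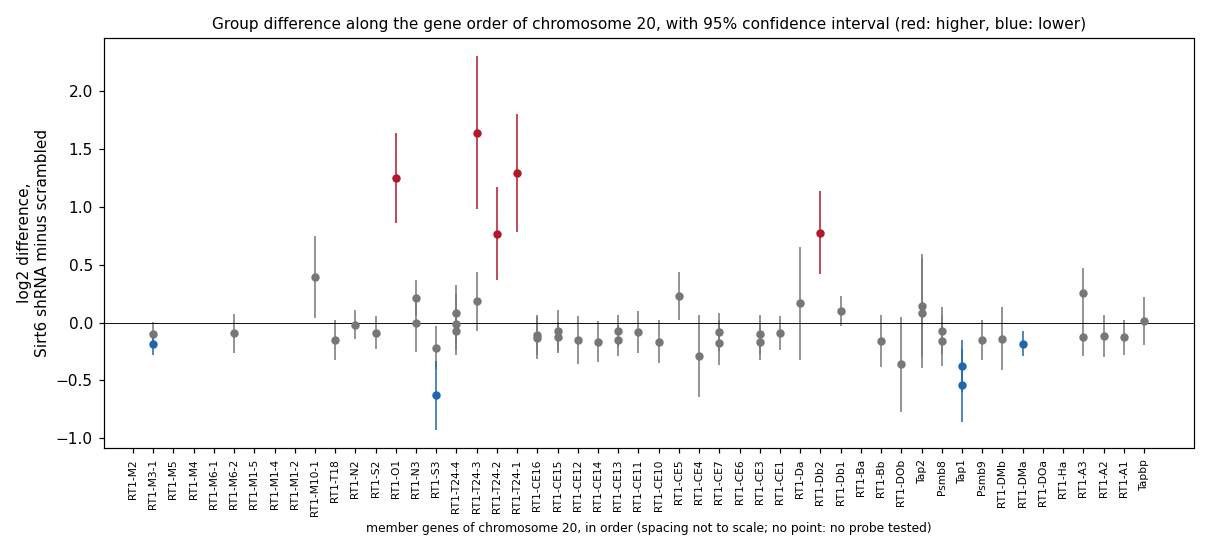
Log2 differences (Sirt6 shRNA minus scrambled) with 95% confidence intervals are drawn in the order of member genes on chromosome 20, with spacing not to scale. The 4 rises from RT1-O1 to RT1-T24-1 reach 0.77 to 1.64, and RT1-S3 between them is at -0.63.

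Promoter windows of RefSeq, from 250 bases before to 50 after the start in GRCr8, were found for 48 of the 57 names. They are shown for a gene that rose and for 3 that fell. Capitals mark matches on either strand to 4 motifs, which may overlap each other. They are the core of the interferon-stimulated response element (TTTC and TTTC separated by 2 bases), the gamma-activated site (TTCNNNGAA), the inverted CCAAT box (ATTGG) and the NF-kB consensus.
RT1-T24-3, chr20:2722875-2723174, plus strand: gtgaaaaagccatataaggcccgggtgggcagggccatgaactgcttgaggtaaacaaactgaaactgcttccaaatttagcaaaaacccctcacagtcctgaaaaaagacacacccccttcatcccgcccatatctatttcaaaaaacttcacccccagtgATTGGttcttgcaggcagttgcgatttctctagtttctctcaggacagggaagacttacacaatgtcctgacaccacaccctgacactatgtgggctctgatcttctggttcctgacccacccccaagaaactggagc
RT1-S3, chr20:2675278-2675577, plus strand: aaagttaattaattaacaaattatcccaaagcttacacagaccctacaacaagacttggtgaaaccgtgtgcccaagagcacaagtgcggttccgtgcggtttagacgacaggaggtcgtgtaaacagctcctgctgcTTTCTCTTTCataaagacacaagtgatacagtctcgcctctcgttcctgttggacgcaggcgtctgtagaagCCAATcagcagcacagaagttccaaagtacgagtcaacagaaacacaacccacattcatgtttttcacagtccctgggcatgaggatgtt
Tap1, chr20:4668494-4668793, minus strand: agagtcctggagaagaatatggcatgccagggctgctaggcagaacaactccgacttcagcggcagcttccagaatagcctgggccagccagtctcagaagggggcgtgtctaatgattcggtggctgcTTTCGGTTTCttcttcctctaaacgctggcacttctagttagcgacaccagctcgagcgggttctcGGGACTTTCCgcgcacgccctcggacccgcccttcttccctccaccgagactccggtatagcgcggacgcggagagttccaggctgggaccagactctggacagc
B2m, chr3:129549080-129549379, plus strand: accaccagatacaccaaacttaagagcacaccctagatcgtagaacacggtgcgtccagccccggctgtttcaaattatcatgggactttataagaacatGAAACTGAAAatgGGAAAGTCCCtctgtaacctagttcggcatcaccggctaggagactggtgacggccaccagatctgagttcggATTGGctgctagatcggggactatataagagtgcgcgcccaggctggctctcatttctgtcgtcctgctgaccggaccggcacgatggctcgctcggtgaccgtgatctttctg
The interferon element core was in 9 of the 48 windows (18.8%), against 3.92% of all 33469 windows. It begins 112 bases before the start in RT1-S3, 121 in Tap1 and 150 in B2m. The 9 genes had 14 tested probes, of which 4 fell and none rose, the falls being in those 3 genes and 2 of them on the Tap1 probes. Over the whole array 14.4% of probes fell, and whether the 14 fell more often was not tested. Psmb8, Psmb10, Tap2, Tapbp, RT1-N3 and RT1-S2 hold it too and had no called probe. The NF-kB consensus was in 16 windows (33.3%, against 7.51% of all), including 11 of 31 class I windows. Its genes had 19 tested probes, of which 3 fell, in B2m and Tap1, and none rose, beside the same 14.4% falling and 14.1% rising over the array. RT1-DMa and RT1-M3-1, which fell too, have windows with neither the interferon element core nor the NF-kB consensus. The inverted CCAAT box was in 34 (70.8%, against 37.5%), including all 9 class II windows, and the gamma-activated site in 3 (6.25%, against 8.87%). The windows of Tap1 and Psmb9, which are read in opposite directions, share 44 bases. A match says only that the letters are there.

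The wider pathway was read from gene lists, each gene by its brightest probe. For all the lists, the share to set beside their counts is 14.1% of probes rising and 14.4% falling over the array. Whether any list departed from that share was not tested. Interferon receptors and signalling genes had 1 rise and 8 falls among 16, with a median of -0.17 against 0.02 over all probes. Irf7, which drives interferon production, fell by 0.95 on the log2 scale (SE 0.187), Stat2 by 0.56 (SE 0.067) and the receptor gene Ifnar1 by 0.37 (SE 0.054). Among NF-kB subunits 3 of 5 fell, including Relb (-0.27 ± 0.052 SE) and Nfkb1 (-0.23 ± 0.038). Of 10 peptide loading cofactors, Nlrc5, the transactivator of class I genes, rose by 0.46 ± 0.043 SE (adjusted p = 0.00026), and the chaperone Calr fell by 0.57 (SE 0.139, adjusted p = 0.0177). Class II accessory and proteolysis genes had 2 rises and 4 falls among 13. The falls were in Lgmn (-0.44 ± 0.119 SE) and Ctsl (-0.30 ± 0.059), both lysosomal proteases, Rfxank (-0.43 ± 0.071) and Nfya (-0.36 ± 0.082), both subunits of factors that bind class II promoters.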

How the data were processed

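Total RNA of 8 samples, 4 per group by their labels, was read on 1-colour Agilent arrays. The deposited intensity values were made by the authors with Agilent Feature Extraction (version 11.5.1.1 in the submitters' processing notes), and the processed signal is background-subtracted with no scaling between arrays, per the file headers. A deposited table gives the authors' log2 values, which differ from log2 processed signal by 1 constant per array (SD at most 0.0029) and have column medians of -3.70 to -3.59.

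Control and outlier-flagged spots were left out, spots of 1 probe averaged, and each array's 75th percentile subtracted from the log2 signal. Probes well above background on at least 4 of 8 arrays were kept. The group comparison was a two-sided limma test (lmFit and eBayes, limma 3.58.1, R 4.3.3), adjusted by Benjamini-Hochberg across the 28620 kept probes and a threshold of 0.05. Same-gene probe pairs were fitted in the same way on their log2 ratio. Alternatives were normexp background correction, quantile, median and spike-in scaling, the authors' log2 values, other filters on dim probes, 16 added before log2, other eBayes options, array weights, the replicate block, 1 value per gene, and the omission of each array. The fit was tested on simulated data in which 200 of 28620 probes were changed. It recovered 38% of log2 changes of 0.3, 72% of 0.6, 82% of 1 and 98% of 2. Of the simulated calls, 6.45% were false. The real data had many more called probes, so these shares do not carry over directly. No member spot was saturated. Sequences were compared in Python 3.11.15. The array number limits the precision.

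The members and gene lists were chosen with earlier results of these data known. Every member may be named. From each pathway or marker list up to 4 called genes of largest difference, or the 2 of smallest p, could be named. A few genes and sequences are not reported here. Names came from the file, and RefSeq (GRCr8) gave gene order and promoters. The labels do not say whether replicate numbers pair the samples. Deviations of same-numbered arrays from their group means correlated at 0.059, 0.149, 0.139 and 0.020. Those of differently numbered arrays were not set beside them, so this check cannot settle whether the samples are paired. All arrays shared 1 slide, scrambled arrays in row 1 and Sirt6 shRNA arrays in row 2 per the file headers, so the row on the slide cannot be told apart from the group.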

Additional observations from a re-analysis of the deposited data

Results flagged for a closer look

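In 126 groups of 4 arrays, 5 (3.97%) had 1 array whose gap to its nearest neighbour took up more of the group's range than Dixon's 95% critical value allows, about what chance gives at 1 in 20. In RT1-O1, Sirt6 shRNA replicate 3 was the lowest of its group (0.94), still above every scrambled array. In RT1-T24-2, Sirt6 shRNA replicate 4 was the lowest (0.843). RT1-M6-2 was highest in Sirt6 shRNA replicate 2 (0.916), RT1-DMb highest in scrambled replicate 2 (0.915), and Psmb9 lowest in scrambled replicate 3 (0.836).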

How the results depend on the processing

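No member changed direction while called in any alternative setting. The called probes of RT1-T24-3, RT1-T24-1, RT1-O1 and RT1-S3 kept their calls in every setting fitted by probe that tested them, RT1-O1 and RT1-T24-1 being left out with RT1-T24-2 by the filter on all 8 arrays. Members that rose numbered 5, and 3 with normexp correction or with probes above background on all 8 arrays. Members that fell numbered 7. There were 11 with normexp correction, 1 with spike-in scaling, 2 with no filter on dim probes, 12 with the replicate number as a block and 4 with the brightest probe of each gene, where RT1-S3 and RT1-M3-1 were not called. Leaving out 1 array, with the background filter of all 8 arrays kept, gave 5 to 6 rises and 2 to 12 falls. The lowest count came without scrambled replicate 2 and the highest without scrambled replicate 3. There were 3 without scrambled replicate 4 or Sirt6 shRNA replicate 3, and 4 without Sirt6 shRNA replicate 1. Over all probes, spike-in scaling gave 2413 rises and 1465 falls in place of 4022 and 4107, and leaving out 1 array gave 2940 to 3706 and 3256 to 3993.

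Of the 17 probe pairs, 1 was called. There were 4 with normexp correction. Quantile normalization, probes above background on all 8 arrays and 16 added gave 2 each. With no filter or with the replicate block there were 0. The exact permutation test also gave 0, within the limit on its p given above. Leaving out 1 array gave 0 to 2. By limma, 7 of the 17 had an unadjusted p under 0.05. Fewer samples or another set of probes tested changes the adjustment itself; beyond that the cause was not tested. Probes near background, RT1-O1, RT1-Db2 and RT1-T24-2 among them, have the least certain fold changes.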

Other observations

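Genes for receptors that bind MHC or MHC-like molecules, listed together with the class I-like Fcgrt and Hfe, were mostly silent. Of 13 listed, 7 were above background on no array, among them the natural killer receptor genes Klrd1, Klrk1 and Klrc1, and Lag3, Cd8a, Lilrb3 and Cd247. Of the 5 tested, Tfrc, the transferrin receptor, fell by 0.57 on the log2 scale (SE 0.039, adjusted p = 7.29e-05). Fcgrt, the class I-like Fc receptor that pairs with B2m, fell by 0.25 (SE 0.051, adjusted p = 0.0081). Hfe, a class I-like regulator of iron uptake, rose by 0.34 ± 0.088 SE (adjusted p = 0.0218), from a signal that was above background in 3 of 4 scrambled arrays.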
